A study of Homo sapiens with 21 samples.

Results

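Promoters of long noncoding RNAs (lncRNAs) that lay away from any protein-coding gene start were taken from an H3K4me3 ChIP-seq peak table of RS4;11 cells. A region was chosen by 3 conditions: a peak was called in it in all 9 H3K4me3 libraries, its distance to the outermost 5′ end of at least 1 lncRNA gene in the RNA count table, but of no protein-coding gene, was 1 kb or less, and it was on chromosomes 1 to 22 or X. Of the 19279 merged regions, 13883 were called in all 9 libraries, 13872 of these were on the chromosomes used, and 861 met the rule. They lay within 1 kb of the 5′ ends of 943 of the 17805 lncRNA genes in the count table. Because the members were selected on peak presence in every library, a promoter whose peak was missing in 1 library is not among them, and presence itself is not a result here. The widths of the peaks and the RNA of the genes were not used by the rule.

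RS4;11 is an established line of human B-cell precursor acute lymphoblastic leukaemia with a KMT2A-AFF1 fusion. The cells spent 24 h in 1 of 3 media: medium lacking asparagine and supplemented with ferric nitrate at 10 µM plus the iron-transporting compound hinokitiol at 0.75 µM (-Asn+Fe), asparagine-free medium alone (-Asn), or complete medium (+Asn). Each medium had 3 RNA-seq libraries and 3 H3K4me3 libraries. Hinokitiol was present in -Asn+Fe alone, so iron and hinokitiol cannot be told apart, and the labels leave unsaid whether replicates were separate cultures, so a p-value here reflects differences among libraries of a medium that could be technical. All groups come from 1 line.

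H3K4me3 is trimethylation of lysine 4 of histone H3, laid down by SET1 and MLL complexes around active transcription start sites. Long noncoding RNA genes are transcribed by RNA polymerase II much like coding genes and carry the same mark, usually with less RNA. Their products include nuclear scaffolds such as MALAT1 and NEAT1, decoys for RNA-binding proteins such as NORAD, and host transcripts whose introns or exons are cut into small nucleolar RNAs (snoRNAs) or microRNAs while the spliced remainder is often degraded.

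The promoters of 7 members show the range of the set. MALAT1 is the most abundant member described here, NBR2 and SNHG8 had large rises without asparagine, MIR17HG and DANCR fell, MEF2C-AS1 sits in the widest region, and RARA-AS1 was higher without asparagine and lower again with iron. Each sequence runs from 250 bases before to 50 bases after the RefSeq start (GRCh38.p14), 5′ to 3′ on the gene's strand. Capitals mark the letters of the motifs searched on both strands, which were the TATA box (TATAAA), the CCAAT box (CCAAT), the GC box (GGGCGG), an ETS site (CCGGAAG), the E-box (CACGTG), the cAMP response element (TGACGTCA), the C/EBP-ATF response element (TGATGNAA) and the antioxidant response element (TGACNNNGC).
MALAT1: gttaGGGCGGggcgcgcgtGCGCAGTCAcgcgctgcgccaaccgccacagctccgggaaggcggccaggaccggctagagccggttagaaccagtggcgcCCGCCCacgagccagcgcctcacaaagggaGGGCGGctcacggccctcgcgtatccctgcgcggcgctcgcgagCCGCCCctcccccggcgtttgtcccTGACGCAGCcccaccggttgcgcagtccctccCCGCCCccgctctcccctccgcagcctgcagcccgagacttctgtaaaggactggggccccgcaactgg
NBR2: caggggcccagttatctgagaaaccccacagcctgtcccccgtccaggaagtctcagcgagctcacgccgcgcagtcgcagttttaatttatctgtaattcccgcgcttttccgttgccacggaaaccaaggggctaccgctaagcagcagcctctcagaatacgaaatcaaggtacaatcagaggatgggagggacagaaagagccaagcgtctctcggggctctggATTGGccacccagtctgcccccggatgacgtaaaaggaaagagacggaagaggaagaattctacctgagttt
SNHG8: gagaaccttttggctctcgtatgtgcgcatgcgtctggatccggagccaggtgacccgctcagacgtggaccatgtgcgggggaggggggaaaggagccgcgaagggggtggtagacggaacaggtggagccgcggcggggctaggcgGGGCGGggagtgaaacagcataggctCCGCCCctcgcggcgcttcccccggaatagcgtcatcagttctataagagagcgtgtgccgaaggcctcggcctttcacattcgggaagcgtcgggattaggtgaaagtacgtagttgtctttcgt
MIR17HG: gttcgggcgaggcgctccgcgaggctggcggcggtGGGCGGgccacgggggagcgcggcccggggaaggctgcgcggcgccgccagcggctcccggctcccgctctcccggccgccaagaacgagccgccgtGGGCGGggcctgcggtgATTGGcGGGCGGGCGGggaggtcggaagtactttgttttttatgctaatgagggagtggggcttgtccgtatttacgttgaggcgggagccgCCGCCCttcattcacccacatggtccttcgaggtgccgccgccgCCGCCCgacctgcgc
DANCR: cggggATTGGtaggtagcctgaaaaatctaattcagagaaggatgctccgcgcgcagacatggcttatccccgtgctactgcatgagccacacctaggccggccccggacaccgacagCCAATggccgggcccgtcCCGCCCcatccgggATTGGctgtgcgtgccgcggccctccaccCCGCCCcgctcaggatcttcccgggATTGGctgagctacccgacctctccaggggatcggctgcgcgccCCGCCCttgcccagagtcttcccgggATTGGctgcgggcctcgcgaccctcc
MEF2C-AS1: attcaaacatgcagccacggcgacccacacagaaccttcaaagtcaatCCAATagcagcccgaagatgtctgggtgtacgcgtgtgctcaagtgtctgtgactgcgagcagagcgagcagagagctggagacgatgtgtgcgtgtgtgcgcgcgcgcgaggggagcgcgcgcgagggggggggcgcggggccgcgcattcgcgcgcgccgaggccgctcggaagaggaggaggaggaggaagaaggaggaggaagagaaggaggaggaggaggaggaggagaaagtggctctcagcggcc
RARA-AS1: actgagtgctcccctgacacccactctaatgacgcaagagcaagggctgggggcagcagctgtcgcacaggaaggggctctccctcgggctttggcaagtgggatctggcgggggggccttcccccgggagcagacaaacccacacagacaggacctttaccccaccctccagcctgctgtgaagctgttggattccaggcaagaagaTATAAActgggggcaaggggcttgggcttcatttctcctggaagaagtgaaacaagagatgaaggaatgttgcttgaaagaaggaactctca

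These promoters lie at chr11:65497488-65497787 (+ strand), chr17:43125307-43125606 (+ strand), chr4:118278512-118278811 (+ strand), chr13:91347437-91347736 (+ strand), chr4:52712144-52712443 (+ strand), chr5:88883080-88883379 (+ strand) and chr17:40343087-40343386 (- strand). The MALAT1 window held 5 GC boxes and 2 antioxidant response letters, and its GC content was 73.7%. The MIR17HG window held 6 GC boxes and 1 CCAAT box, and the DANCR window 5 CCAAT boxes and 3 GC boxes. RARA-AS1 had 1 TATA box and the lowest CpG content of the 7, with an observed over expected CpG ratio of 0.209 against 0.759 in NBR2, 0.798 in DANCR, 0.925 in MALAT1, 1.05 in SNHG8 and 1.07 in both MIR17HG and MEF2C-AS1. A match describes letters in this window and is not evidence of binding.

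Of the 943 genes, 206 matched a promoter in the RefSeq table, and in 183 the RefSeq start lay inside the H3K4me3 region. Over these 183 promoters the median GC content was 63.3%, close to the 62.3% of the 22199 protein-coding promoters in the table and above the 58.7% of the 34961 genes of all types in it. A CpG ratio over 0.6, a usual mark of a CpG island, was found in 74.9% of the member promoters, 62.1% of the protein-coding promoters and 48.9% of all promoters. Only the member promoters were required to lie in an H3K4me3 region called in all 9 libraries. The 3 sets are therefore not matched for the mark, and their differences cannot be assigned to the kind of gene. The GC box was in 59.6%, 56.3% and 45% of the same 3 sets, and the TATA box in 8.2%, 9.47% and 11.5%. CCAAT boxes were about as common in all 3 (33.9%, 34.7% and 34.6%). The C/EBP-ATF letters, the kind of site that ATF4 binds in the amino acid response, were in 1.09% of member promoters, 2.69% of protein-coding promoters and 3.62% of all promoters. They were in 0 of the 75 matched members whose RNA rose without asparagine and 0 of the 16 whose RNA fell, counts too small at these shares to tell the groups apart.

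In 731 regions (84.9%) the lncRNA 5′ end lay inside the H3K4me3 region itself. Most regions served 1 lncRNA gene (781), 76 served 2, and 63 held lncRNA 5′ ends on both strands. Outside any protein-coding gene lay 500 regions (58.1%), and 322 (37.4%) lay inside a protein-coding gene that runs antisense to the lncRNA. The nearest protein-coding 5′ end was a median of 27467 bp away. At the edges of the rule, AC009403.3 and AC007950.2 were 996 and 994 bp from their regions and were kept, and AC023787.2 and AL158063.1 were 1003 and 1005 bp away and were not. For protein-coding genes, SMAD3 at 1004 bp and KDM5B at 1013 bp left their lncRNA regions in the set, and MMRN2 at 966 bp and PCGF2 at 897 bp took theirs out.

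The name "lncRNA only" holds for the outer 5′ ends of the count table but less well for other starts of the same coding genes. Set against RefSeq, 226 of the 861 regions (26.2%) lay within 1 kb of the start of a protein-coding gene, and 316 (36.7%) covered a protein-coding exon. The region of NBR2 lay within 1 kb of the RefSeq start of BRCA1, that of AP000704.1 of HLCS, and that of RARA-AS1 of RARA. The 518 regions with neither feature made up 60.2% of the set. Counts below are therefore also given for the 635 regions with no RefSeq coding start within 1 kb.

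The RNA libraries held 29362707 to 42478518 counts. Markers of B-cell precursors were high in all 9 (25.3 to 1379 CPM for 9 genes), and the 5 T-cell and 3 erythroid markers stayed at or below 0.614 CPM. Of the 4 myeloid markers, MPO ran from 0.518 to 0.937 CPM, LYZ from 0.161 to 1.45 CPM, CD14 reached 0.454 CPM and ELANE 0.0491 CPM. Of the 4 epithelial or stromal markers, COL1A1 ran from 1.16 to 3 CPM, COL1A2 reached 0.442 CPM, KRT8 0.0922 CPM and EPCAM 0.028 CPM. Libraries of -Asn and -Asn+Fe had composition (TMM) factors of 1.02 to 1.09, against 0.888 to 0.912 in +Asn, and 1 library, -Asn replicate 1, differed from the other -Asn libraries by 40.7 and 45 in chi-square per degree of freedom, where other replicate pairs differed by 3.91 to 16.9. The share of all counts in lncRNA genes was at least 2.42% in -Asn+Fe, at least 2.07% in -Asn and at most 1.3% in +Asn. In bulk RNA, fewer cells that express a gene and less RNA per cell cannot be told apart.

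Member lncRNAs were sparse. A gene was tested only if it passed edgeR's low-count filter, and 521 of the 943 did. In all, 59 had no count in any library, 297 averaged at least 1 CPM and 80 at least 10 CPM. Per kilobase of exon the median level was 0.183 CPM, against 6.55 CPM for the 9189 protein-coding genes at regions called in all 9 libraries. On this length-scaled measure MALAT1 led the members described here with 263 CPM per kb, followed by SNHG6 with 181, NORAD with 110, SNHG29 with 106 and AL713998.1 with 47.4 CPM per kb.

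Summed over all 943 genes, the RNA was 12377, 12398 and 12245 CPM in -Asn+Fe, 11074, 10694 and 10052 CPM in -Asn, and 6353, 6935 and 6693 CPM in +Asn. The 3 media did not overlap, and MALAT1 alone made up 3183 to 3320 CPM of the sum in -Asn+Fe, 2148 to 3312 CPM in -Asn and 905 to 1189 CPM in +Asn.

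Without asparagine most member lncRNAs that changed were higher. Among the 297 that averaged at least 1 CPM, 167 were higher in -Asn than in +Asn and 41 lower (edgeR quasi-likelihood test, Benjamini-Hochberg adjusted p under 0.05), and the median log2 fold change was 0.58. Among 11057 protein-coding genes at the same level, 3383 were higher and 4681 lower, with a median of -0.11, and among 1150 other lncRNA genes 545 were higher and 178 lower, with a median of 0.39. Over all 521 tested members, 262 were higher (50.3%) and 49 lower (9.4%), beside 31% and 30.2% of all 17939 genes tested. Members near the detection limit could pass the filter through the medium where they were high, so this last count is a description only. A mean of 1 CPM can be passed in the same way, so the counts at that level share this limit. AC007780.1, for example, had a mean of 1.54 CPM but 0.0376 CPM in +Asn. Of the 55 members that averaged 20 CPM or more, 42 were higher and 9 lower, beside 1886 and 3480 of 7133 protein-coding genes. Scaled to library totals only, the median of all genes moved to 0.25 on the log2 scale, beside 0.04 with TMM. With that scaling 313 members were higher and 31 lower (60.1% and 5.95%), beside 40.9% and 21.4% of all genes. Without -Asn replicate 1, the library that stood apart, 248 of 541 tested members were higher and 47 lower (45.8% and 8.69%). Of all genes 29.8% were higher and 30.4% lower in that fit. The counts are 204 higher and 43 lower for the 406 tested genes with no RefSeq coding start near the region.

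**Figure D1:**
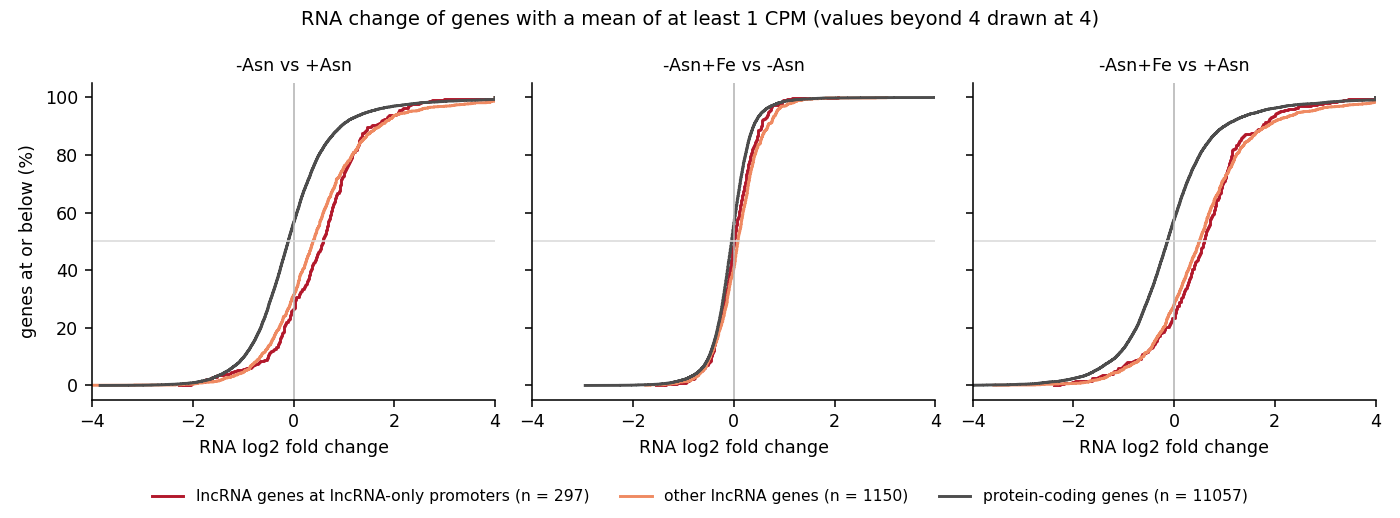
Cumulative share of genes (y axis, %) by RNA log2 fold change (x axis) in each comparison, for lncRNA genes at lncRNA-only promoters (n = 297), other lncRNA genes (n = 1150) and protein-coding genes (n = 11057) that averaged at least 1 CPM. In -Asn against +Asn the member curve crosses 50% at 0.58, other lncRNA genes at 0.39 and protein-coding genes at -0.11, and in -Asn+Fe against -Asn the member curve crosses at 0.01.

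Strand was a limit for these counts, because the strand setting of the counting is not given in the sources used here and reads of overlapping genes cannot be told apart. Exon bases were shared with another gene in 295 of the 521 tested members. For the 226 with no shared exon base, 100 were higher and 26 lower (44.2% and 11.5%), with a median log2 fold change of 0.66. Of all genes tested 31% were higher and 30.2% lower. Where the region lay outside protein-coding genes, 174 of 338 were higher and 37 lower (51.5% and 10.9%) with a median of 0.66. Where the lncRNA ran antisense inside a coding gene, 80 of 163 were higher and 10 lower (49.1% and 6.13%) with a median of 0.71. Of the 83 members outside protein-coding genes, with no shared exon base and at least 1 CPM, 45 were higher (54.2%) and 18 lower (21.7%). These shares stand beside 56.2% and 13.8% of all members of at least 1 CPM.

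The abundant lncRNAs MALAT1, NEAT1 and NORAD were all higher without asparagine. MALAT1, a nuclear speckle RNA, had 3183, 3320 and 3198 CPM in -Asn+Fe, 3312, 2596 and 2148 CPM in -Asn, and 905, 1189 and 1058 CPM in +Asn. Both asparagine-free media lay above every +Asn library, by a log2 fold change of 1.35 ± 0.133 (SE) for -Asn (edgeR adjusted p = 3.57e-07). NEAT1, the scaffold of paraspeckles, had 441, 453 and 443 CPM in -Asn+Fe, 338, 341 and 288 CPM in -Asn, and 100, 122 and 112 CPM in +Asn. Its 3 media did not overlap, with a log2 fold change of 1.53 without asparagine (edgeR adjusted p = 1.25e-10) and a further 0.47 with iron (adjusted p = 4.39e-04). NORAD, a cytoplasmic RNA that sequesters PUMILIO proteins, averaged 813 ± 18.8 CPM in -Asn+Fe, 595 ± 78.8 CPM in -Asn and 370 ± 12 CPM in +Asn (SD, n = 3 each). It rose in both steps, by 0.68 without asparagine and by 0.45 with iron on the log2 scale (edgeR adjusted p = 3.06e-06 and 8.44e-04).

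AL713998.1, a lncRNA gene on chromosome 6 with no protein-coding 5′ end within 745816 bp of its region, had 461, 431 and 448 CPM in -Asn+Fe, 288, 282 and 277 CPM in -Asn, and 36.4, 49.2 and 45.2 CPM in +Asn. The media did not overlap. It was 6.48-fold higher in -Asn than in +Asn (edgeR adjusted p = 4.96e-13), and the log2 fold change with iron added was 0.66 (edgeR adjusted p = 2.67e-05). NBR2, transcribed divergently from BRCA1 and known as a partner of the energy sensor AMPK under glucose starvation, had 58.2, 54.3 and 56.1 CPM in -Asn+Fe, 51.9, 60.8 and 60.7 CPM in -Asn, and 7.12, 7.43 and 7.26 CPM in +Asn. That is a 7.95-fold difference between -Asn and +Asn (edgeR adjusted p = 5.6e-14), and -Asn+Fe and -Asn overlapped.

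The 2 largest fold changes among members of at least 1 CPM belonged to AC007780.1 and AC116025.2, clone-named genes with very few reads in +Asn, and NBR2 came next. AC116025.2, on chromosome 17 inside a protein-coding gene of the same strand, had 8.92, 9.78 and 7.61 CPM in -Asn+Fe, 8.28, 7.88 and 8.69 CPM in -Asn, and 0.241, 0.144 and 0.084 CPM in +Asn, where 17 reads in all were counted. Its log2 fold change without asparagine was 5.69 ± 0.232 (SE; edgeR adjusted p = 3.22e-12). AC007780.1 had 1.51 to 1.85 CPM in -Asn+Fe, 2.82 to 2.97 CPM in -Asn and 0 to 0.084 CPM in +Asn, a total of 4 reads in +Asn, and 53.2% of its exon bases are shared with genes such as ARSG, PRKAR1A and WIPI1. AP000704.1, near the RefSeq start of HLCS, followed NBR2 with a log2 fold change of 2.75 and averaged 10.8 ± 1.45 CPM in -Asn+Fe, 7.7 ± 0.568 CPM in -Asn and 1.14 ± 0.101 CPM in +Asn (SD, n = 3 each). In all 3 genes both asparagine-free media stood apart from +Asn.

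**Figure D2:**
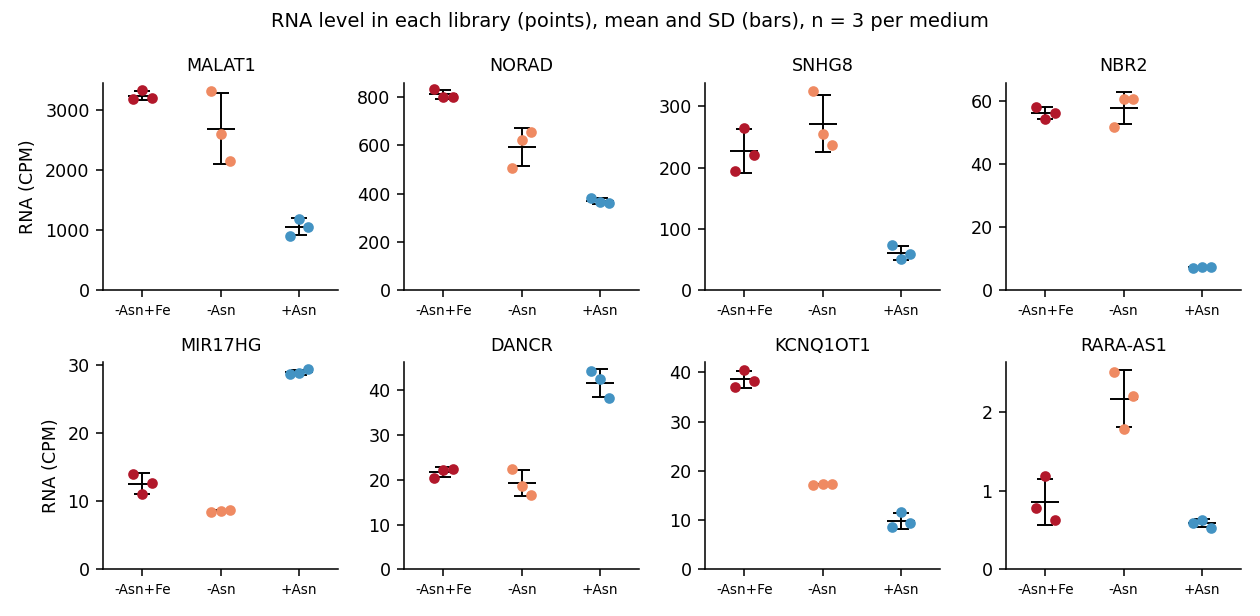
RNA level (y axis, CPM, from 0) of 8 member lncRNAs in each library (points), with the mean and SD of 3 libraries per medium. MALAT1, NORAD, SNHG8, NBR2 and KCNQ1OT1 are above +Asn in every asparagine-free library, MIR17HG and DANCR are below it, and RARA-AS1 is highest in -Asn (1.79 to 2.51 CPM).

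The snoRNA host genes (the SNHG family with EPB41L4A-AS1) had 15 members, all of them tested. They were picked by gene symbol, so any snoRNA host under another symbol is not counted in this class. Without asparagine 10 were higher and 2 lower (66.7% and 13.3%), beside 31% and 30.2% of all genes, with a median log2 fold change of 0.79. Over all 28 tested family members of the count table, 15 were higher and 5 lower. SNHG8, host of SNORA24, had 195, 265 and 220 CPM in -Asn+Fe, 324, 254 and 236 CPM in -Asn, and 73.1, 50.9 and 59.3 CPM in +Asn. Every asparagine-free library was above every +Asn library, and the log2 fold change was 2.15 ± 0.146 (SE; edgeR adjusted p = 6.42e-09), although 39.6% of its exon bases are shared with PRSS12 and SNORA24.

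SNHG5 and EPB41L4A-AS1 followed, with log2 fold changes of 1.30 and 1.23 without asparagine (edgeR adjusted p = 5.51e-09 and 1.8e-07). SNHG29, the most abundant host here by CPM, averaged 849 ± 31.4 CPM in -Asn+Fe, 925 ± 115 CPM in -Asn and 512 ± 27.9 CPM in +Asn (SD, n = 3 each). SNHG16 and SNHG26 went the other way, with log2 fold changes of -0.28 and -0.52 (edgeR adjusted p = 3.65e-03 and 2.75e-04), and SNHG16 was no longer called when libraries were scaled to their totals only. With iron 5 of the 15 were lower and 1, SNHG26, was higher (33.3% and 6.67%), beside 16.8% and 14% of all genes. SNHG12 averaged 61.2 ± 8.19 CPM in -Asn+Fe, 82.4 ± 13.1 CPM in -Asn and 43.6 ± 0.99 CPM in +Asn (SD, n = 3 each), so the -Asn+Fe value lay between the other media. Its log2 fold change with iron was -0.43 (edgeR adjusted p = 6.05e-03). The calls with iron for SNHG5, SNHG6 and EPB41L4A-AS1 were lost in 9, 5 and 2 of 16 alternative fits, and that of SNHG12 in 0. Those of SNHG5 and SNHG6 were lost, among others, without -Asn replicate 1, the library that stood apart.

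Of 12 microRNA host genes 8 were tested, and of these 2 were higher and 3 lower in -Asn than in +Asn (25% and 37.5%), near the 31% and 30.2% of all genes. In -Asn+Fe against -Asn 4 were higher and 0 lower, beside 14% and 16.8% of all genes. MIR17HG, the precursor of the miR-17-92 cluster that MYC activates, had 14, 11 and 12.7 CPM in -Asn+Fe, 8.49, 8.6 and 8.67 CPM in -Asn, and 28.6, 28.8 and 29.3 CPM in +Asn. It fell by 1.75 on the log2 scale without asparagine (edgeR adjusted p = 1.08e-10) and was 0.55 higher with iron than without (adjusted p = 4.14e-04), with no overlap between media. MIR155HG, host of miR-155, had 10.7, 9.3 and 9.09 CPM in -Asn+Fe, 5.02, 5.28 and 5.07 CPM in -Asn, and 9.15, 8.26 and 7.73 CPM in +Asn. It was lower in -Asn than in +Asn by a log2 fold change of -0.71 (edgeR adjusted p = 5.03e-05), 0.92 higher with iron than without (adjusted p = 1.49e-05), and -Asn+Fe and +Asn overlapped.

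Other hosts differed again. MIR3142HG, which also carries miR-146a, averaged 20.9 ± 1.19 CPM in -Asn+Fe, 14.3 ± 0.687 CPM in -Asn and 10.9 ± 0.277 CPM in +Asn (SD, n = 3 each) and rose in both steps. MIR193BHG averaged 1.46 ± 0.131 CPM in -Asn+Fe, 0.315 ± 0.0814 CPM in -Asn and 0.435 ± 0.162 CPM in +Asn, a log2 fold change of 2.21 with iron (edgeR adjusted p = 8.08e-05). MIR222HG fell by 0.50 on the log2 scale without asparagine (edgeR adjusted p = 3.07e-03).

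Among the members that fell, DANCR, an RNA that holds epidermal progenitors undifferentiated, had 20.5, 22.1 and 22.5 CPM in -Asn+Fe, 22.4, 18.7 and 16.6 CPM in -Asn, and 44.3, 42.4 and 38.2 CPM in +Asn. The +Asn libraries stood above all others, and the log2 fold change was -1.12 ± 0.101 (SE; edgeR adjusted p = 5.88e-08). DLEU2, host of miR-15a and miR-16-1 in a region often deleted in chronic lymphocytic leukaemia, averaged 37.5 ± 4.16 CPM in -Asn+Fe, 36.4 ± 2.32 CPM in -Asn and 58.4 ± 6.01 CPM in +Asn (SD, n = 3 each; log2 fold change -0.68 without asparagine, edgeR adjusted p = 7.47e-06). LINC01922 had 3.72 to 4.43 CPM in -Asn+Fe, 3.29 to 4.97 CPM in -Asn and 15.7 to 17.2 CPM in +Asn. The other genes with the largest falls were AL009178.2 (log2 fold change -2.28), AC125603.2 (-2.02), AP003774.3 (-1.96) and AC006329.1 (-1.75), the last sharing 83.3% of its exon bases with IFT22. LNCPRESS1, a lncRNA known from human embryonic stem cells, lies close to AC006329.1 on chromosome 7 and had 0.376 to 0.515 CPM in -Asn+Fe, 0.641 to 0.737 CPM in -Asn and 1.84 to 2.58 CPM in +Asn.

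Fewer members differed between -Asn+Fe and -Asn than between -Asn and +Asn, and they did so in both directions. Of the 297 at 1 CPM or more, 46 were higher and 35 lower in -Asn+Fe than in -Asn, and over all 521 tested the counts were 58 and 45 (11.1% and 8.64%), beside 14% and 16.8% of all genes tested. The median log2 fold change was 0.01. Without -Asn replicate 1 the counts were 63 and 35 of 541 (11.6% and 6.47%), beside 13.9% and 15.1% of all genes. With no RefSeq coding start near the region, 48 of 406 were higher and 36 lower. Against +Asn, -Asn+Fe had 176 higher and 49 lower of 297, and 274 higher and 61 lower of 521, beside 32.9% and 31.9% of all genes tested, with 217 and 51 of the 406 that have no RefSeq coding start near the region. The comparisons share libraries, so the values of each medium are given side by side.

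KCNQ1OT1, the imprinted antisense RNA of the KCNQ1 locus, had 37, 40.4 and 38.3 CPM in -Asn+Fe, 17.2, 17.3 and 17.3 CPM in -Asn, and 8.54, 11.6 and 9.36 CPM in +Asn. Each medium stood apart, with a log2 fold change of 1.16 ± 0.0962 (SE) for iron (edgeR adjusted p = 1.6e-07) and 0.81 for asparagine removal (adjusted p = 2.83e-06). AL021155.2, on chromosome 1, had 4.78, 4.5 and 4.72 CPM in -Asn+Fe, 1.09, 0.983 and 1.24 CPM in -Asn, and 1.12, 1.04 and 1.29 CPM in +Asn. The -Asn+Fe libraries stood apart from both other media, by a log2 fold change of 2.07 over -Asn (edgeR adjusted p = 1.45e-07), and -Asn and +Asn overlapped. PVT1, next to MYC, averaged 65.4 ± 2.89 CPM in -Asn+Fe, 39 ± 0.876 CPM in -Asn and 26.7 ± 1.68 CPM in +Asn (SD, n = 3 each) and rose in both steps. PVT1 and NEAT1 were the 2 members on a list of lncRNAs known to respond to p53, and both rose in all 3 comparisons.

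The lncRNAs beside XIST in the X-inactivation centre were both expressed. FTX, which promotes Xist in mouse, averaged 121 ± 11.9 CPM in -Asn+Fe, 74.7 ± 4.77 CPM in -Asn and 55.9 ± 6.01 CPM in +Asn (SD, n = 3 each). It rose by 0.42 on the log2 scale without asparagine and by 0.69 with iron (edgeR adjusted p = 7.61e-04 and 2.38e-05). JPX, also an activator of Xist in mouse, averaged 151 ± 10.5 CPM in -Asn+Fe, 140 ± 8.1 CPM in -Asn and 89.3 ± 8.7 CPM in +Asn and rose without asparagine (log2 fold change 0.64, edgeR adjusted p = 3.13e-06), while the log2 fold change with iron was 0.12 (edgeR adjusted p = 0.294). FTX and JPX share exon bases, 34.3% and 60.5% of their lengths being common to other genes.

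Some members were lower in -Asn+Fe than in -Asn. AC004943.2 and LINC01572 start on opposite strands of 1 region on chromosome 16. AC004943.2 had 3.12, 2.54 and 3.07 CPM in -Asn+Fe, 7.31, 8.57 and 9.66 CPM in -Asn, and 5.27, 5.53 and 6.33 CPM in +Asn, and LINC01572 averaged 1.37 ± 0.121 CPM in -Asn+Fe, 2.96 ± 0.583 CPM in -Asn and 2.72 ± 0.473 CPM in +Asn (SD, n = 3 each). With iron they fell by 1.54 and 1.12 on the log2 scale (edgeR adjusted p = 6.21e-07 and 5.28e-04). RARA-AS1, antisense to the retinoic acid receptor gene RARA, had 0.775, 1.19 and 0.625 CPM in -Asn+Fe, 2.51, 1.79 and 2.21 CPM in -Asn, and 0.589, 0.633 and 0.532 CPM in +Asn. It was highest in -Asn, with a log2 fold change of 1.89 over +Asn (edgeR adjusted p = 9.61e-06) and -1.34 for -Asn+Fe over -Asn (adjusted p = 6.84e-04), and 31.1% of its exon bases are shared with RARA.

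H3K4me3 width, the number of bases covered by peaks in a region, was narrower at these promoters than at coding ones. The mean width over the 9 libraries had a median of 1530 bp (interquartile range 990 to 2207 bp) over the 861 members, against 1891 bp at 9274 protein-coding promoters and 1163 bp at 3737 regions near neither kind of 5′ end. Members with no RefSeq coding start within 1 kb had a median of 1349 bp, and the 226 with such a start 2011 bp. In 686 members (79.7%) a single peak was called in every library. Wider regions went with more RNA: the median width was 1196 bp where the lncRNA averaged under 0.1 CPM, 1502 bp from 0.1 to 1 CPM, 1757 bp from 1 to 10 CPM and 2490 bp over 10 CPM (Spearman's rho 0.38 over 861 regions, as a description).

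**Figure D3:**
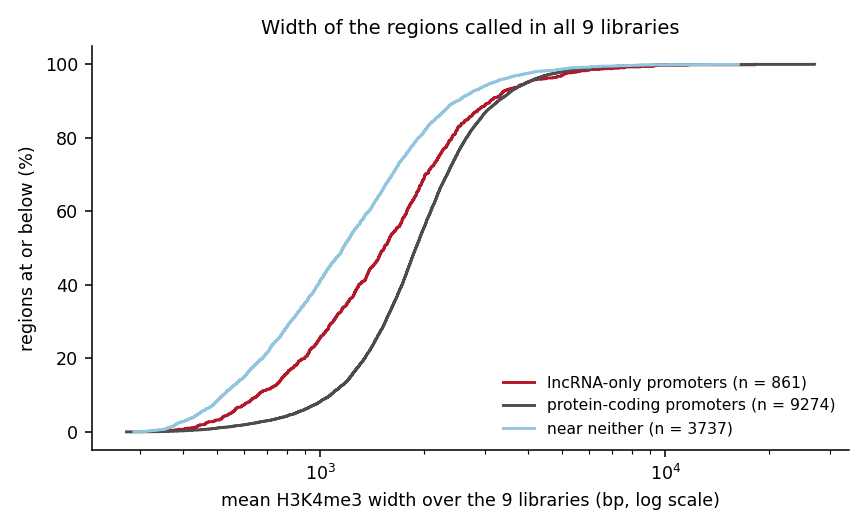
Cumulative share of regions (y axis, %) by mean H3K4me3 width over the 9 libraries (x axis, bp, log scale), for lncRNA-only promoters (n = 861), protein-coding promoters (n = 9274) and regions near neither (n = 3737). The curves cross 50% at 1530, 1891 and 1163 bp.

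The widest member region, at MEF2C-AS1 inside the B-cell and myeloid transcription factor gene MEF2C, ran over chr5:88870399-88890991. This region is one of those within 1 kb of a RefSeq coding start. It was 19683, 16697 and 18253 bp wide in -Asn+Fe, 17038, 19176 and 18139 bp in -Asn, and 18613, 18903 and 17763 bp in +Asn, and the 3 media overlapped. AC068135.2 (11025 to 12009 bp over the 9 libraries), AC008875.2 with AC008875.3 (8458 to 9791 bp) and MBNL1-AS1 (8413 to 10227 bp) were next, and none of the 4 differed between media by the limma test. Among members with no RefSeq coding start within 1 kb, AC068135.2 had the widest region, with a mean of 11612 bp. The narrowest regions, at AC211476.6, LINC00937, AC015908.2 and AL357140.4, were 225 to 527 bp wide in single libraries.

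Most member regions that changed width were wider without asparagine. In -Asn against +Asn 168 of 861 were wider (19.5%) and 13 narrower (limma on log2 width over 13883 regions, Benjamini-Hochberg adjusted p under 0.05), beside 14.6% and 1.45% of all regions tested, 12.3% and 1.43% of protein-coding promoters, and 19.4% and 1.47% of regions near neither kind of 5′ end. The median log2 difference was 0.12 over the members, 0.09 over all regions, 0.07 over coding promoters and 0.16 over regions near neither. The members were thus called wider about as often as the regions near neither. After each library was centred on its median width, 113 members were wider and 53 narrower (13.1% and 6.16%), beside 8.84% and 7.48% of all regions, so the share of wider calls among called members was 68.1% rather than 92.8%. Regions of middling width were called most often. From 600 to 1200 bp, 64 of 238 members were wider (26.9%), beside 15.7% of 1128 coding promoters, 23.6% of 1391 regions near neither and 20.7% of all 2764 regions of that width. Above 1200 bp 93 of 559 members were wider (16.6%), beside 11.7% of coding promoters, 18.9% of regions near neither and 13.2% of all regions. Below 600 bp 11 of 64 members were wider (17.2%), beside 14%, 10.4% and 11.7% of the same 3 sets.

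Median member widths were 1619, 1516 and 1562 bp in -Asn+Fe, 1479, 1684 and 1576 bp in -Asn, and 1442, 1477 and 1407 bp in +Asn. The number of regions with a peak moved with them, at 17206, 15891 and 16384 in -Asn+Fe, 15554, 17448 and 16507 in -Asn, and 15141, 15230 and 14741 in +Asn, and its part in the result was not tested. Single libraries counted for much: 98 members were wider without +Asn replicate 3 (11.4%), 84 without -Asn replicate 2 (9.76%) and 96 without -Asn replicate 3 (11.1%). The shares of all regions called wider fell as well, to 8.02%, 6.68% and 7.68%. Narrower members numbered 6 without +Asn replicate 1 (0.697%), 8 without +Asn replicate 3 (0.929%) and 7 without -Asn replicate 3 (0.813%). Of all regions 0.778%, 0.843% and 0.749% were narrower in these fits. With no RefSeq coding start nearby, 134 of 635 members were wider and 9 narrower.

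The same comparison with iron present gave 139 wider and 19 narrower members in -Asn+Fe than in +Asn (16.1% and 2.21%), beside 11.7% and 1.92% of all regions, and 107 and 50 after centring (12.4% and 5.81%, beside 9.05% and 7.58%; 68.2% rather than 88% of the called members wider). With no RefSeq coding start nearby, 105 of 635 were wider and 15 narrower. Wider members fell to 87 without +Asn replicate 3 (10.1%), 75 without -Asn+Fe replicate 1 (8.71%) and 80 without -Asn+Fe replicate 3 (9.29%). The shares of all regions called wider fell too, to 6.45%, 5.32% and 6.86%. Narrower members numbered 11 without +Asn replicate 1 (1.28%), 8 without +Asn replicate 2 (0.929%) and 11 without -Asn+Fe replicate 2 (1.28%). Of all regions 0.994%, 0.85% and 0.929% were narrower in these fits. Between -Asn+Fe and -Asn, 0 of 861 members and 0% of all regions were called by limma, and 57 members, among 1042 regions, had an unadjusted p under 0.05. The smallest adjusted p of a member was 0.329.

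The region of AC116025.2 (chr17:79991720-79994067) was 2071, 2090 and 2008 bp wide in -Asn+Fe, 2084, 2308 and 2294 bp in -Asn, and 409, 394 and 317 bp in +Asn. It was 6-fold wider in -Asn than in +Asn, with a log2 difference of 2.58 ± 0.0976 (SE; limma adjusted p = 4.27e-07), at the gene whose RNA had the log2 fold change of 5.69. The region of AC243960.3 (chr19:41529855-41533518) was 3355, 2784 and 2604 bp wide in -Asn+Fe, 2646, 3556 and 2912 bp in -Asn, and 722, 638 and 550 bp in +Asn. Its log2 difference was 2.25 ± 0.133 (SE; limma adjusted p = 7.28e-06). At AL713998.1 (chr6:67887563-67889466) the widths were 1740, 1570 and 1601 bp in -Asn+Fe, 1143, 1596 and 1349 bp in -Asn, and 225, 262 and 471 bp in +Asn. In all 3 regions every asparagine-free library was wider than every +Asn library.

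**Figure D4:**
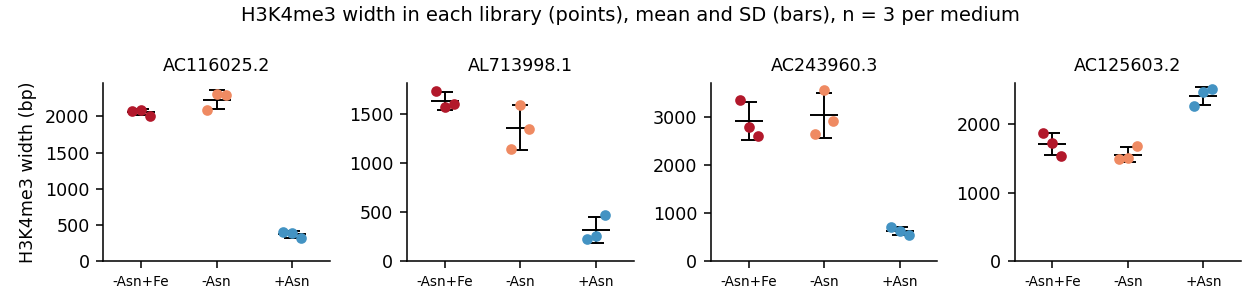
H3K4me3 width (y axis, bp, from 0) in each library (points), with the mean and SD of 3 libraries per medium, for the 3 regions that widened most and for AC125603.2. The first 3 are at 225 to 722 bp in +Asn and 1143 bp or more in every asparagine-free library, and AC125603.2 is widest in +Asn (2271 to 2514 bp).

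AC125603.2, whose RNA fell by 2.02 on the log2 scale, also had a narrower region, of 1871, 1727 and 1543 bp in -Asn+Fe, 1490, 1508 and 1685 bp in -Asn, and 2271, 2474 and 2514 bp in +Asn (log2 difference -0.63 for -Asn over +Asn, limma adjusted p = 7.1e-04). DANCR was narrower too, by a log2 difference of -0.38 (limma adjusted p = 0.0112). LINC01226 had 2035, 2049 and 2229 bp in -Asn+Fe, 1046, 1677 and 1211 bp in -Asn, and 2203, 2239 and 1867 bp in +Asn, so the -Asn libraries were the narrowest (log2 difference -0.71 for -Asn over +Asn, limma adjusted p = 0.0107). Its difference of 0.71 for -Asn+Fe over -Asn was not called (limma adjusted p = 0.33). AC016831.1, whose exons overlap MIR29A and MIR29B1, had a narrower region and more RNA. The region was 1455, 1461 and 1338 bp wide in -Asn+Fe, 1374, 1518 and 1367 bp in -Asn, and 2348, 2331 and 1738 bp in +Asn, while its RNA was 4.83, 4.79 and 4.49 CPM in -Asn+Fe, 2.22, 2.55 and 2.49 CPM in -Asn, and 0.616, 0.403 and 0.252 CPM in +Asn. The narrower calls of U62631.1, AC023051.1 and AC023128.1 were each lost in several alternative fits.

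RNA and width moved together over the members without asparagine. Over the 495 regions with a tested lncRNA (the best expressed where there were several), the log2 changes in -Asn against +Asn had a Pearson's r of 0.47 and a Spearman's rho of 0.50, and over the 283 at 1 CPM or more 0.52 and 0.51. All points share the same libraries, so these are descriptions. The values over 8193 coding promoters, also at 1 CPM or more, were 0.48 and 0.42. Where the RNA rose, 69 of 251 regions were wider (27.5%) and 2 narrower. Where it fell, 2 of 49 were wider and 6 narrower, and where it was not called, 19 of 195 were wider (9.74%) and 3 narrower. For RNA up at least 4-fold, 25 of 50 regions were wider. At 1 CPM or more 9 of 17 were, and the shares wider were 25.6% where the RNA rose, 4.88% where it fell and 7.32% where it was not called. Members near the detection limit could pass the filter through the medium where they were high, so these counts are descriptions only. With iron, r was 0.12 and rho 0.15 over the same 495 regions, and no region was called. At 1 CPM or more they were 0.22 and 0.24 over the 283 regions, beside 0.14 and 0.12 over the coding promoters.

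**Figure D5:**
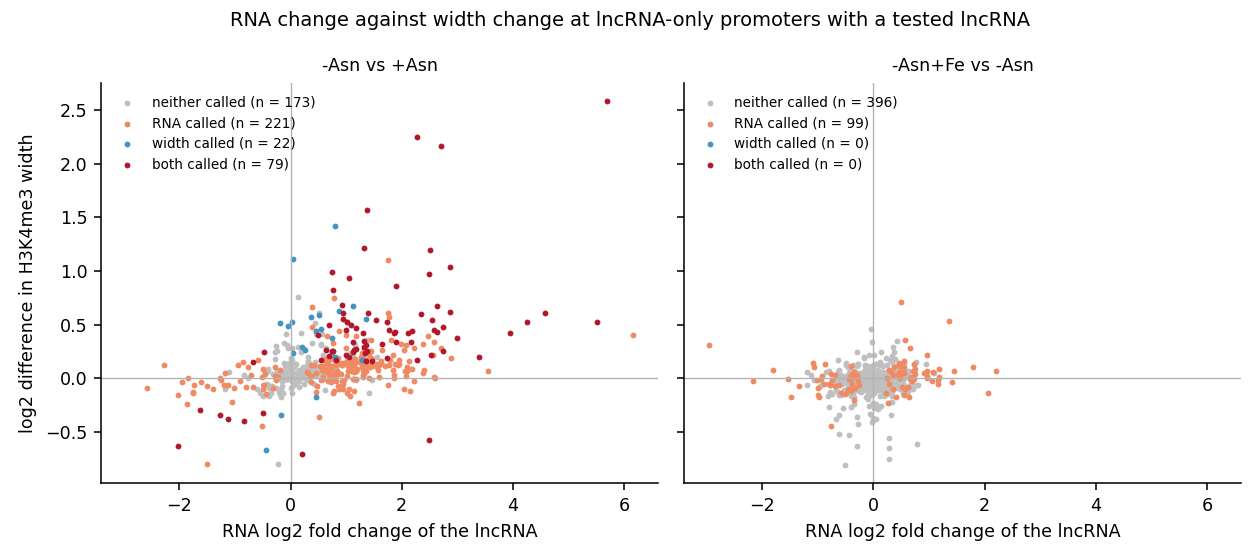
RNA log2 fold change of the lncRNA (x axis) against the log2 difference in H3K4me3 width of its region (y axis) for 495 lncRNA-only promoters, in -Asn against +Asn and in -Asn+Fe against -Asn. Colours show which of the 2 passed an adjusted p of 0.05; in the first comparison r is 0.47, and in the second, where r is 0.12, no width was called.

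Widths are given here for the snoRNA hosts. None of the 15 regions was called by limma wider or narrower in -Asn against +Asn, beside 14.6% and 1.45% of all regions, so few calls would be looked for in a set of this size. They had log2 width differences between -0.23 and 0.10, and 10 of the RNAs were higher. The SNHG8 region differed by -0.12 (limma adjusted p = 0.141) at an RNA log2 fold change of 2.15. In -Asn+Fe against +Asn 1 of the 15 regions, that of SNHG17, was narrower. The microRNA host regions had 0 of 12 called in the same comparison, against the same shares, with differences from -0.14 at MIR17HG to 0.67 at MIRLET7BHG. Among the other classes, 32 of 118 regions of LINC-named genes were wider and 3 narrower, and 117 of 596 of clone-named genes wider and 8 narrower. Genes with antisense symbols had 11 of 101 regions wider and 2 narrower, and those with other symbols 18 of 59 and 1. Divergent transcripts had 1 of 3 wider and 0 narrower. These counts again stand beside 14.6% and 1.45% of all regions. That the classes differ was not tested. Of the abundant lncRNAs, the NEAT1 region was wider by 0.54 on the log2 scale (limma adjusted p = 5.69e-04) and the MALAT1 region by 0.16 (adjusted p = 0.0248), while NORAD differed by 0.18 (adjusted p = 0.137).

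The lncRNAs were compared with their nearest protein-coding genes. For 226 pairs (213 coding genes) with both at 1 CPM or more, the log2 changes in -Asn against +Asn had a Spearman's rho of 0.14 and a Pearson's r of 0.30. Both genes were called in 98 pairs: 33 were higher together, 14 lower together, 43 had the lncRNA higher and the coding gene lower, and 8 the reverse. The coding neighbours had 58 higher and 88 lower calls. At 1 CPM or more 56.2% of all members were higher and 13.8% lower, beside 30.6% and 42.3% of protein-coding genes. A large count with the lncRNA higher and the coding gene lower can arise from such shares alone, and opposition within pairs was not tested. The median log2 fold change was 0.56 for the lncRNAs and -0.08 for the neighbours. For the 25 pairs 1 to 5 kb apart r and rho were both 0.36. For 116 pairs at 5 to 50 kb r was 0.34 and rho 0.02, and for 85 pairs farther apart both were 0.19, so the 2 measures gave no common order with distance. These values are descriptions over genes measured in the same libraries.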

How the data were processed

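RNA-seq and H3K4me3 ChIP-seq were measured in 9 libraries each, with 3 input libraries that have no values here. The deposited read counts per gene came from the authors' run of featureCounts (Subread 1.6.5), after bcl2fastq and alignment by STAR 2.7.2a, and the peaks from MACS2 2.2.7.1 after alignment by Bowtie2 2.4.4 and a Picard 2.18.26 step, per the submitters' processing notes, which name build hg38. How strand and multimapping reads were handled, which peak threshold applied and whether input was used is not given in the sources used here. Positions of each library's peaks in merged regions, and no heights, make up the deposited peak table, so the count test first planned for peaks could not be used. Columns named untreated were taken as +Asn.

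From these counts, edgeR 4.0.16 (R 4.3.3) gave the RNA tests (filterByExpr, TMM factors, robust quasi-likelihood, all 9 libraries in 1 model, 17939 genes), and a call needs a Benjamini-Hochberg adjusted p under 0.05. CPM uses the TMM-scaled totals. Widths are the bases covered by peaks per region and library, tested as log2 width over 13883 regions with limma 3.58.1 (trend). Scripts were tested on simulated data. The members and gene lists were chosen with earlier results of these data known. Genes named are the largest changes at a mean of at least 1 CPM, the most abundant members and listed lncRNAs. Regions named are those with the largest changes and the extreme widths. SNHG17, SNHG26, MIR193BHG, MIR222HG, MIR3142HG and MIRLET7BHG fall outside that rule and were chosen after their values were seen. Alternatives were DESeq2 1.42.0, other scalings and filters, other windows, other width measures, a replicate block and each library left out.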

Additional observations from a re-analysis of the deposited data

How the results depend on the processing

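Over all alternatives, 24 counts of called members moved by more than 1.5 times. Members of at least 1 CPM gave 167 higher in -Asn than in +Asn and 176 higher in -Asn+Fe than in +Asn, and members sharing no exon gave 100 higher and 26 lower, 18 and 14 for iron, and 106 and 31 for -Asn+Fe against +Asn; these sets hold fewer genes and were chosen after seeing the data, as were the counts without RefSeq coding starts. With library totals only, 31 and 39 members were lower than in +Asn in -Asn and in -Asn+Fe, beside 49 and 61. Of all genes 21.4% and 22.2% were lower with this scaling, beside 30.2% and 31.9%. Centred widths gave 53 and 50 narrower members, beside 13 and 19. Of all regions 7.48% and 7.58% were narrower after centring, beside 1.45% and 1.92%. The cause was not tested. With each library left out in turn, RNA counts ran from 236 to 273 higher and 44 to 55 lower for -Asn against +Asn, 48 to 63 and 30 to 43 for iron, and 258 to 286 and 50 to 62 for -Asn+Fe against +Asn. Of all genes, 26% to 30.5% were higher in -Asn than in +Asn and 27.2% to 30.7% lower in these fits. Width counts ran from 84 to 206 wider and 6 to 15 narrower for -Asn against +Asn, and 75 to 155 and 8 to 22 for -Asn+Fe against +Asn, and stayed at 0 for iron. The share of all regions called wider ran from 6.68% to 18.5% and from 5.32% to 13.2% in the same 2 comparisons with +Asn. Same-numbered libraries had deviations correlated at -0.147 to 0.128 for RNA and -0.211 to 0.0933 for widths. No shared effect of a replicate number was visible in these values, but they cannot tell whether the numbers denote paired samples. With a replicate block, RNA gave 256 higher and 46 lower, 53 and 42 for iron, and 268 and 56 for -Asn+Fe against +Asn, and widths 131 wider and 13 narrower, 0 and 0, and 102 and 16. Of 116 called values of named genes and regions, 102 were called in every alternative. The depth of the H3K4me3 libraries is unknown here, and its part in the widths was not tested.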
